A study of Mus musculus with 12 samples.

Results

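The genes described here are 10 genes of cytotoxic granules and of T and NK lymphocytes, namely Gzma, Gzmb, Prf1, Nkg7, Ccl5, Icos, Cd3e, Cd3d, Ncr1 and Il2rb. They were chosen by gene symbol in the probe annotation, and each of the 10 had 1 probe set among the 22206 tested probe sets, so no choice between probe sets was needed. They are 10 of the 19505 genes named on the array. The cells measured were alveolar macrophages from C57 Black males, taken at day 1, day 3 or day 7 after 70% of the liver had been removed, or from mice with an intact liver. The 4 groups had 3 biological replicates each, 1 Clariom S mouse array per replicate and 12 arrays in total. The control mice kept their liver, and neither a sham operation nor the age of the mice is given in the sources used here. The treatment text of the labels also has a line on macrophages kept in culture with other cells, which does not match a sort from lung and was taken as not applying to these samples. The cells were taken from the lung with magnetic beads carrying an antibody to Siglec-F, a lectin that alveolar macrophages and eosinophils carry in the mouse.

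Cytotoxic T cells and NK cells kill by releasing granules in which perforin, the product of Prf1, opens the membrane of the target and granzymes, serine proteases, enter it. T cells recognise antigen through a receptor whose signalling chains include CD3 epsilon and CD3 delta, while NK cells use activating receptors such as NKp46, the product of Ncr1. Both depend on interleukin 2 and interleukin 15, which signal through a receptor that shares the beta chain Il2rb. In the lung, resident and recruited lymphocytes of these kinds take part in defence against viruses and tumour cells. Macrophages are not known as a main source of granzymes, perforin or CD3 chains, whereas the chemokine gene Ccl5 can also be expressed by macrophages and dendritic cells.

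RefSeq promoter windows of build GRCm38.p6 were found for 7 of the 10 genes. The 250 bases before the start are shown for Gzma, Gzmb and Nkg7, genes of the cytotoxic granule that were lower on all arrays after resection. They are also shown for Prf1, a gene of the same granule whose signal lay within the background of the arrays, also in intact mice. They are written 5′ to 3′ on the strand of the gene, and capitals mark every match, on either strand, to the motifs TGTGGT (RUNX), GTGTGA (T-box), GGAAGT (ETS) or TGANTCA (AP-1).
Gzma, chr13:113100982-113101231, minus strand: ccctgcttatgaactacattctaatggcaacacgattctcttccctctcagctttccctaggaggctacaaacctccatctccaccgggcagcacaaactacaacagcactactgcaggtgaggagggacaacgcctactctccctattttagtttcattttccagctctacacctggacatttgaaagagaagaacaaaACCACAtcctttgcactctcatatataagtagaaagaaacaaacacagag
Gzmb, chr14:56262335-56262584, minus strand: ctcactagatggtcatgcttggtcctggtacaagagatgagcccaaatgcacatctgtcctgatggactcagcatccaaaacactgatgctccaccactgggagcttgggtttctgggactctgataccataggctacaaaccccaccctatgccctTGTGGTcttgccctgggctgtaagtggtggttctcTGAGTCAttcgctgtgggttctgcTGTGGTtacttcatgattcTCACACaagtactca
Nkg7, chr7:43436888-43437137, plus strand: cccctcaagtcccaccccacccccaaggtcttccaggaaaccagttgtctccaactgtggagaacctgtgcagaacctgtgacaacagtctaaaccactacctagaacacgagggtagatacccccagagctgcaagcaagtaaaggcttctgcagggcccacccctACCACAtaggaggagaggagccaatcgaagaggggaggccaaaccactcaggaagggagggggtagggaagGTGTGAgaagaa
Prf1, chr10:61297586-61297835, plus strand: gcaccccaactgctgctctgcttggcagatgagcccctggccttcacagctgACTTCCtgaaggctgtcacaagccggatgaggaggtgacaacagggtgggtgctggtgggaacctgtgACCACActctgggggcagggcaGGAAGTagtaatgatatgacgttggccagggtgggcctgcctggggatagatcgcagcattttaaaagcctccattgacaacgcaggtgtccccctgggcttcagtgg
The RUNX motif was found in 5 of the 7 windows, those of Gzma, Gzmb, Prf1, Nkg7 and Ncr1, and in 14.2% of all 27025 windows of that length. Its match began 50 bases before the start in Gzma and 130 bases before it in Prf1. The T-box motif was found in 3 of the 7 windows (Gzmb, Nkg7 and Ncr1) and in 12.2% of all. The ETS motif stood in those of Prf1, Cd3e and Cd3d and in 20% of all, and the AP-1 motif stood in that of Gzmb and in 6.87% of all. In the 4 windows shown no match overlapped another. The windows of Gzma and Prf1 both held the RUNX motif. These matches describe the letters of the windows, not sites at which a factor was bound.

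The deposited values are log2 signals after RMA, a method that subtracts background, brings all arrays to 1 distribution of signals and combines the probes into a value per probe set. Background was read from 5222 intron control probe sets, whose upper 95% limit lay between 5.01 and 5.69 on the 12 arrays. All 12 of the listed alveolar macrophage markers exceeded this limit on at least 1 array, and 11 of them did so on all 3 intact arrays. Siglecf was at 8.33 to 8.79 in the group means. Markers of other cells passed too, with 9 of 14 for lung tissue and 7 of 9 for neutrophils above the limit on all 3 intact arrays. The area under the curve that separates exon from intron controls was 0.809 to 0.837 for day 1 replicate 2, day 3 replicate 1 and day 7 replicate 2, and 0.852 to 0.888 for the 9 arrays left. The spiked dap control was at 6.47 to 7.77 in day 3 replicate 1 and in replicates 2 and 3 of day 7, and at 2.13 to 2.89 elsewhere. Results below are given with and without the 3 arrays of weakest separation where they differ.

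Most of these T and NK cell genes lay within the background of the arrays. Of the 10 genes, 4 exceeded the intron control limit on any array, namely Gzma, Ccl5, Icos and Il2rb, and they did so on intact arrays only. On 0 of the 9 arrays after resection did any of the 10 genes exceed it. The defining chain Cd3d and the NK receptor Ncr1 lay in the body of the background on all 12 arrays, with 44.3 to 73.3% of intron controls below Cd3d and 9.6 to 47.1% below Ncr1. Of the other T cell genes 16 of 18 and of the other NK cell genes 15 of 17 never exceeded the limit. In sorted cells measured in bulk, fewer cells of a type and less RNA per cell cannot be told apart.

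**Figure D1:**
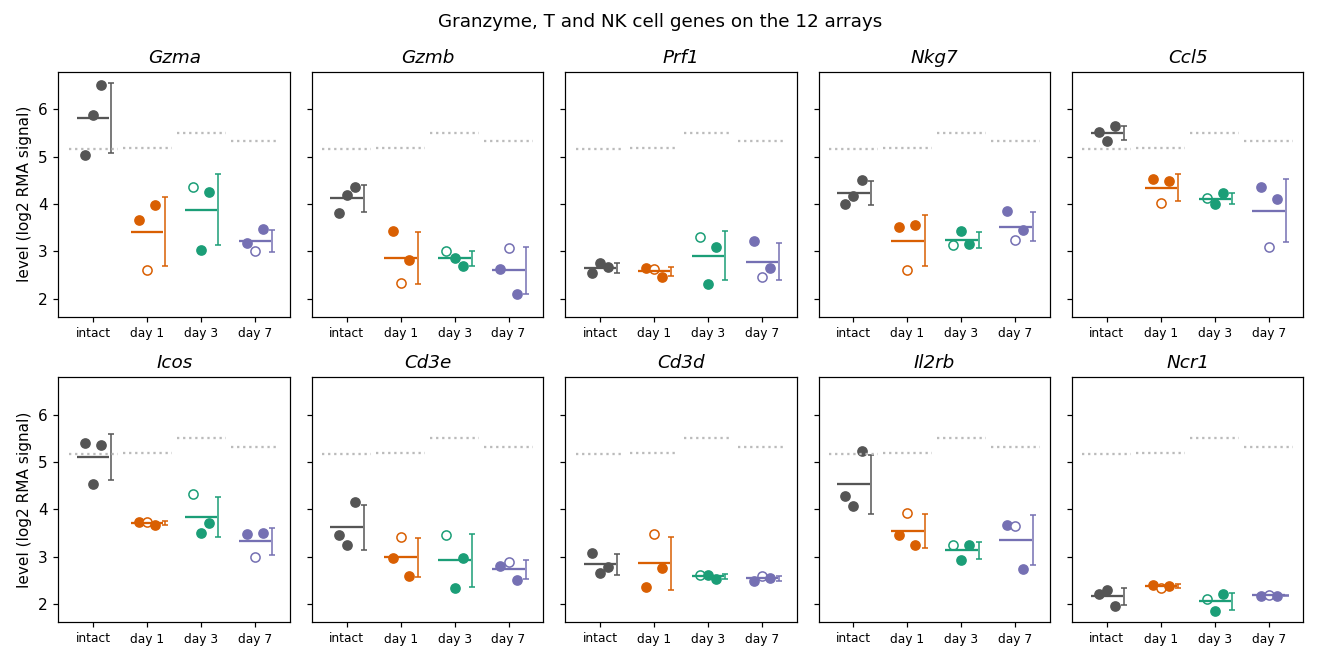
Level of each of the 10 genes on the vertical axis (log2 RMA signal) by group on the horizontal axis, with 1 point per array, the mean as a bar, the SD (n = 3) as a bracket and the mean upper 95% limit of the intron controls of each group as a dotted line. Open points are the 3 arrays of weakest control separation. For Gzma, Gzmb, Nkg7, Ccl5, Icos and Il2rb all 9 arrays after resection lie below all 3 intact arrays.

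**Figure D2:**
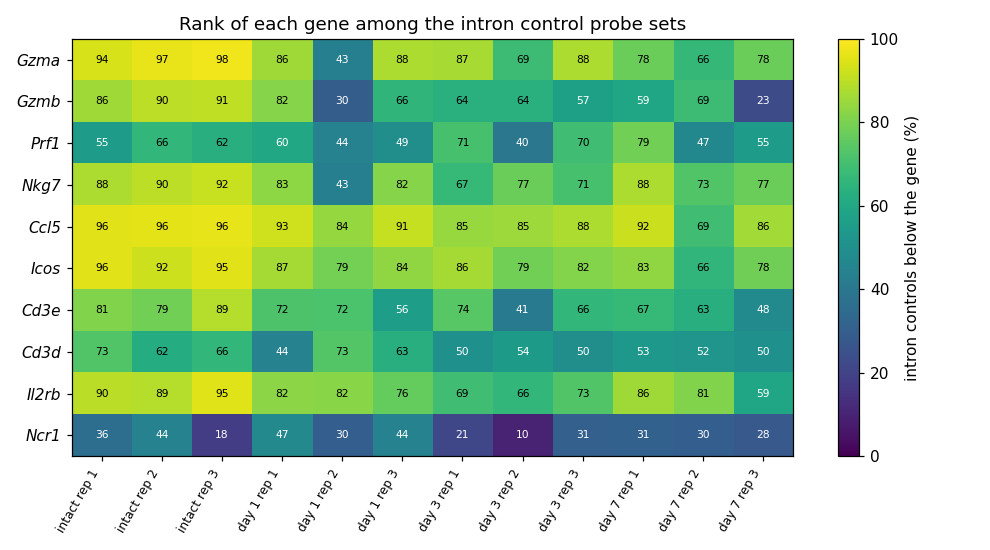
Share of the 5222 intron control probe sets (percent) that lie below each gene on each of the 12 arrays, with genes down the page and arrays across. Gzma passes 94.0 to 97.9% of controls on the intact arrays, while Ncr1 passes less than 50% on every array.

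After resection 6 of the 10 genes, Gzma, Gzmb, Nkg7, Ccl5, Icos and Il2rb, were lower on each of the 9 arrays than on each of the 3 intact arrays, at every time measured. The same held for 0.919% of all 22206 probe sets, or 204 probe sets, while 0 of the 10 genes and 0.518% of all lay above on all 9 arrays. These 6 were lower by 0.71 to 2.60 on the log2 scale. None of the 10 genes passed the test in limma over all 12 arrays, in which p-values were adjusted by Benjamini-Hochberg over all 22206 probe sets to a threshold of 0.05. In the F test for any difference among the 4 groups 0 of the 10 passed (0.00901% of all), and at an unadjusted p under 0.05 the same 6 genes did (7.34% of all). Without the 3 arrays of weakest separation, 7 of the 10 genes were below all intact arrays on the 6 arrays after resection that remained, as were 2.83% of all probe sets, and between 2 and 5 of the 10 passed at each day, all of them lower.

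At day 1 after resection 0 of the 10 genes passed, as did 0% of all probe sets. At an unadjusted p under 0.05, 6 of the 10 were lower (5.9% of all probe sets) and 0 were higher (3.04% of all). The same 6 lay below the intact arrays without overlap (8.94% of all), and Ncr1 lay above them (7.42% of all). The median difference of the 10 genes was -1.0, against -0.011 over all probe sets. Without the 3 arrays of weakest separation Ccl5 and Icos passed, with 0.32% of all probe sets.

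At day 3 again 0 of the 10 genes passed, with 0.0045% of all probe sets lower and 0% higher. Unadjusted, 7 were lower (2.5% of all) and 0 higher (1.96% of all), the additional gene being Cd3e. Without overlap 7 lay below the intact arrays (6.68% of all), here with Cd3d in place of Cd3e, and 0 lay above (7.19% of all). The median difference was -1.12, against 0.001 over all probe sets. Without the 3 arrays of weakest separation Gzma, Gzmb, Nkg7, Ccl5 and Icos passed, with 1.13% of all probe sets.

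At day 7 the count past the threshold was 0 of 10, with 0.018% of all probe sets lower and 0% higher. Unadjusted, 7 were lower (3.74% of all) and 0 higher (1.95% of all), and 8 lay below the intact arrays without overlap (8.15% of all), all but Prf1 and Ncr1, while 0 lay above them (6.11% of all). The median difference was -1.03, against -0.009 over all probe sets. Icos had the smallest adjusted p of the 10 genes in any of these comparisons. Without the 3 arrays of weakest separation Gzma, Gzmb, Ccl5 and Icos passed, with 1.26% of all probe sets. The comparisons of the 3 days share the intact arrays, so their values are not independent.

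**Figure D3:**
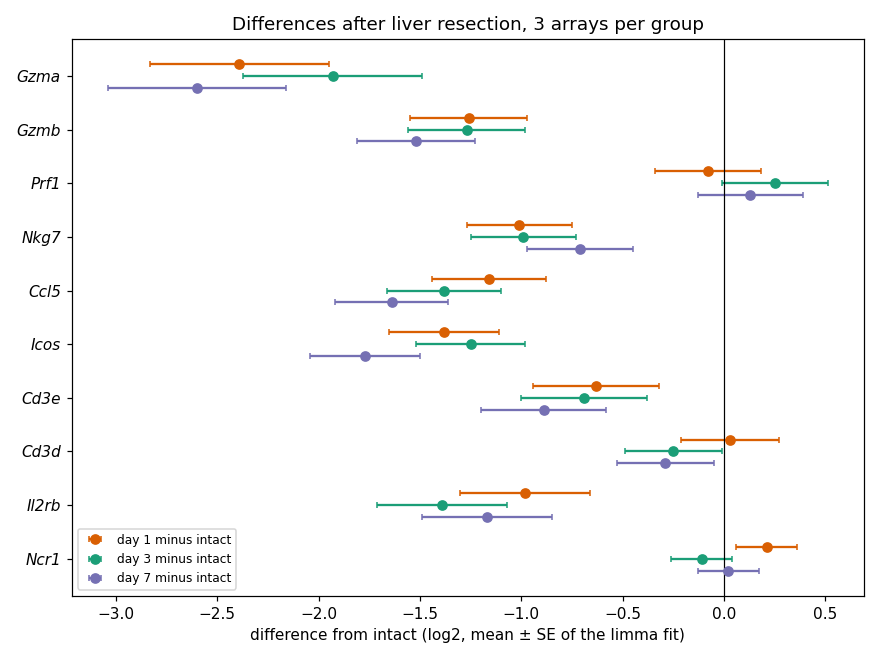
Difference from intact of each gene (log2, horizontal axis) at day 1, day 3 and day 7, with the SE of the limma fit over 12 arrays as bars. The 3 points of Gzma lie between -2.60 and -1.93, and those of Prf1, Cd3d and Ncr1 lie between -0.29 and 0.25.

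Among the granule proteases, Gzma encodes granzyme A, a protease that cuts after basic residues. Its level was 5.04, 5.88 and 6.52 on the intact arrays, 3.66, 2.61 and 3.99 at day 1, 4.36, 3.03 and 4.26 at day 3, and 3.17, 3.01 and 3.47 at day 7 (log2, replicates 1, 2 and 3). The highest array after resection, day 3 replicate 1, stayed below the lowest intact array. The mean was 5.81 ± 0.74 in intact mice, 3.42 ± 0.72 at day 1, 3.89 ± 0.74 at day 3 and 3.22 ± 0.23 at day 7 (SD, n = 3 each). It was lower by 5.25-fold at day 1 (log2 difference -2.39 ± 0.44 SE, limma adjusted p = 0.167), by 3.80-fold at day 3 (-1.93 ± 0.44, adjusted p = 0.392) and by 6.04-fold at day 7 (-2.60 ± 0.44, adjusted p = 0.14). By unadjusted p it ranked 18th of the 22206 probe sets at day 1 and 10th at day 7. Whether any group differed was tested with the moderated F test, which gave an adjusted p of 0.227 in limma.

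Gzmb encodes granzyme B, which cuts after aspartate and activates caspases. Its level was 3.81, 4.19 and 4.37 on the intact arrays, 3.43, 2.33 and 2.82 at day 1, 3.01, 2.86 and 2.70 at day 3, and 2.62, 3.08 and 2.10 at day 7. All values were under the intron control limit, also in intact mice, where 85.6 to 90.6% of intron controls lay below the gene. The log2 difference from intact was -1.26 ± 0.29 at day 1 (limma adjusted p = 0.27), -1.27 ± 0.29 at day 3 (adjusted p = 0.392) and -1.52 ± 0.29 at day 7 (adjusted p = 0.163). Both granzyme genes had their lowest mean at day 7 and their highest in intact mice, and for both the 3 days after resection overlapped with each other.

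Prf1, the gene of perforin, did not show this pattern, but it lay within background in intact mice too. Its level was 2.54, 2.75 and 2.68 on the intact arrays, 2.64, 2.63 and 2.46 at day 1, 3.31, 2.32 and 3.10 at day 3, and 3.23, 2.47 and 2.66 at day 7. The groups overlapped in every comparison and the values lay within background, with 39.6 to 78.9% of intron controls below the gene. The difference from intact was -0.08 at day 1 (95% interval -0.64 to 0.47), 0.25 at day 3 (-0.30 to 0.81) and 0.13 at day 7 (-0.42 to 0.68). No change in perforin transcripts was detected, and a fall from a level within background could hardly have been seen.

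Nkg7 encodes a membrane protein of the cytotoxic granule that takes part in its release. Its level was 4.0, 4.18 and 4.51 on the intact arrays, 3.51, 2.60 and 3.56 at day 1, 3.13, 3.43 and 3.16 at day 3, and 3.86, 3.25 and 3.46 at day 7. The highest value after resection, 3.86 on day 7 replicate 1, came close to the lowest intact value. The log2 difference was -1.01 ± 0.26 at day 1 (limma adjusted p = 0.289), -0.99 ± 0.26 at day 3 (adjusted p = 0.563) and -0.71 ± 0.26 at day 7 (adjusted p = 0.757). The day 7 difference of Nkg7 was -0.37 without the 3 arrays of high dap, which left 1 array at day 7.

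Ccl5 encodes a chemokine that T and NK cells release with their granules and that attracts other leukocytes. It was the only one of the 10 genes above the intron control limit on all 3 intact arrays, at 5.53, 5.34 and 5.64. After resection its level was 4.53, 4.02 and 4.49 at day 1, 4.12, 4.0 and 4.23 at day 3, and 4.37, 3.10 and 4.11 at day 7. The intact arrays lay close together (SD 0.15), and no array after resection came within that range. Ccl5 was lower by 2.23-fold at day 1 (log2 difference -1.16 ± 0.28, limma adjusted p = 0.27), by 2.61-fold at day 3 (-1.38 ± 0.28, adjusted p = 0.211) and by 3.11-fold at day 7 (-1.64 ± 0.28, adjusted p = 0.14). At day 7 the value of replicate 2, an array of weak separation, was the lowest. Without the 3 such arrays the difference was smaller, at -1.26, and passed the threshold (limma adjusted p = 0.00568), as did 1.26% of all probe sets.

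Icos encodes a costimulatory receptor of activated T cells and of innate lymphoid cells. Its level was 5.40, 4.54 and 5.36 on the intact arrays, 3.74, 3.74 and 3.67 at day 1, 4.32, 3.51 and 3.71 at day 3, and 3.47, 2.99 and 3.51 at day 7. The day 1 arrays had an SD of 0.04, and day 3 replicate 1 was the array after resection nearest to the intact ones. Icos was lower by 2.61-fold at day 1 (log2 difference -1.38 ± 0.27, limma adjusted p = 0.172), by 2.39-fold at day 3 (-1.25 ± 0.27, adjusted p = 0.283) and by 3.42-fold at day 7 (-1.77 ± 0.27, adjusted p = 0.0852). At day 7 it ranked 5th of all probe sets by unadjusted p. The call at day 7 turned on single arrays of other groups. Without day 3 replicate 1 Icos passed (limma adjusted p = 0.0301), as did 0.036% of all probe sets. Without day 1 replicate 2 both Icos (adjusted p = 0.035) and Gzma (adjusted p = 0.0341) passed, as did 0.0811% of all probe sets.

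Of the chains that signal for the T cell receptor, Cd3e, the epsilon chain, had a level of 3.46, 3.24 and 4.16 on the intact arrays, 2.97, 3.41 and 2.59 at day 1, 3.45, 2.34 and 2.98 at day 3, and 2.81, 2.88 and 2.50 at day 7. The groups overlapped at day 1 and day 3, and all day 7 arrays were below the intact ones. The log2 difference was -0.63 ± 0.31 at day 1 (limma adjusted p = 0.58), -0.69 ± 0.31 at day 3 (adjusted p = 1) and -0.89 ± 0.31 at day 7 (adjusted p = 0.705). Over the fits that left out 1 array, the difference of Cd3e lay between -0.84 and -0.36 at day 1, the weakest without intact replicate 3, and between -0.96 and -0.40 at day 3, the weakest without day 3 replicate 2 and nearly as weak without intact replicate 3.

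Cd3d, the delta chain, had a level of 3.08, 2.65 and 2.78 on the intact arrays, 2.36, 3.47 and 2.76 at day 1, 2.62, 2.61 and 2.53 at day 3, and 2.49, 2.59 and 2.56 at day 7. Its highest value came from day 1 replicate 2, the array of weakest separation. The difference from intact was 0.03 at day 1 (95% interval -0.49 to 0.54), -0.25 at day 3 (-0.77 to 0.26) and -0.29 at day 7 (-0.81 to 0.22), and without the 3 arrays of weakest separation the day 1 value was -0.28. The difference between the chains was not tested.

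Of the receptors, Il2rb, the beta chain for interleukins 2 and 15, had a level of 4.28, 4.07 and 5.24 on the intact arrays, 3.46, 3.93 and 3.24 at day 1, 3.24, 2.93 and 3.24 at day 3, and 3.66, 3.65 and 2.75 at day 7. Intact replicate 3 was the highest, and day 1 replicate 2 lay just under the lowest intact array. The log2 difference was -0.98 ± 0.32 at day 1 (limma adjusted p = 0.404), -1.39 ± 0.32 at day 3 (adjusted p = 0.392) and -1.17 ± 0.32 at day 7 (adjusted p = 0.441). Without intact replicate 3 the day 1 difference of Il2rb was -0.63. Ncr1 lay between 1.86 and 2.41 on all 12 arrays. Its differences from intact were 0.21 at day 1 (95% interval -0.12 to 0.55), -0.11 at day 3 (-0.44 to 0.23) and 0.02 at day 7 (-0.31 to 0.35).

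Between the 3 days after resection 0 of the 10 genes passed in limma, as was the case for 0% of all probe sets in each of the 3 pairs of days. At an unadjusted p under 0.05 the count was also 0 of 10, against 9.6% of all probe sets for day 3 against day 1, 5.12% for day 7 against day 3 and 6.74% for day 7 against day 1. The largest of these differences were Gzma at day 7 against day 3, at -0.67 ± 0.44, and Icos in the same pair, at -0.52 ± 0.27. Icos and Ncr1 at day 7 lay below day 1 without overlap (4.66% of all probe sets did, and 4.55% lay above), and Ncr1 at day 3 lay below day 1 (6.24% of all, with 7.03% above). Day 7 and day 3 overlapped for all 10 genes, while 5.69% of all probe sets lay lower at day 7 and 4.84% higher without overlap. The order of the days in the 6 genes that lay below intact is not settled beyond the spread of the arrays.

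The 6 genes were correlated over the 12 arrays, but within groups the values were lower and for some pairs negative. Pearson's r of Gzma was 0.85 with each of Gzmb, Ccl5 and Icos, 0.78 with Nkg7 and 0.67 with Il2rb, but 0.11 with Prf1, -0.02 with Cd3d and -0.14 with Ncr1. With Cd3e it was 0.68. Within groups, after the mean of each group was taken off, the values of Gzma were 0.36, 0.41 and 0.24 with Gzmb, Ccl5 and Icos. They were 0.51 with Nkg7 and 0.08 with Il2rb. For genes outside the 6 they were 0.46 with Prf1, 0.26 with Cd3e, 0.17 with Ncr1 and -0.60 with Cd3d. Within groups Gzma was thus not closer to the 6 as a set than to Prf1. Among the other pairs of the 6, the value within groups was 0.64 for Nkg7 and Ccl5, 0.49 for Ccl5 and Icos and 0.47 for Gzmb and Nkg7. It was 0.30 for Gzmb and Il2rb, 0.25 for Icos and Il2rb and 0.03 for Nkg7 and Icos. The rest were negative, at -0.17 for Gzmb and Ccl5, -0.20 for Gzmb and Icos, -0.15 for Ccl5 and Il2rb and -0.06 for Nkg7 and Il2rb. Cd3e and Il2rb kept an r of 0.81 within groups, against 0.86 over all arrays. These values describe 12 arrays in 4 groups that share the difference from intact and the control separation of each array, and no p is given for them.

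Patterns over the 12 arrays were compared with those of 5102 genes whose highest group mean was above 5.30, the mean intron control limit. The 10 genes were left out. A gene could pass this filter through the intact group alone, and most of the listed T and NK cell genes lay under it. The kinds of gene found were thus limited in advance. The genes most like Gzma were Ly6c2 (r = 0.96), a surface protein of monocytes, then Ppic, Igtp, Itga6, Cbr2, Gsn and Tsc22d1 (each 0.93) and Crim1 (0.92). For the mean of the 10 scaled genes they were Scgb1a1 (0.92), the secretoglobin of club cells, Dpt (0.91), a matrix protein, Ly6c2 (0.88), Zfp609 (0.87), Adh1 (0.85), Mgp (0.84), Fkbp1a (0.83) and Cnn3 (0.82). Within groups Gzma was closest to Trim12a (0.97), then to Nfkbia, Rab27a, Ly6c2, Myadm and Irgm2 (each 0.91) and Itga6 and Chd6 (each 0.90). Rab27a, a small GTPase for the release of granules and a gene of the list of granules and killing, was above the limit on all 12 arrays, and its difference from intact was 0.54 at day 3 and 0.42 at day 7, where that of Gzma was negative. Over the 12 arrays Spearman's rho with Gzma was 0.94 for Ly6c2.

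Other genes of the same pathways were read from 6 lists holding 108 genes, of which 94 were measured. In limma 0 of these passed at any day after resection. Over all probe sets, 5.9, 2.5 and 3.74% were lower at an unadjusted p under 0.05 at days 1, 3 and 7. The shares higher were 3.04, 1.96 and 1.95%. Of the genes of granules and killing, 3, 2 and 1 of 21 were lower at an unadjusted p under 0.05 at days 1, 3 and 7 and 0, 2 and 1 were higher, with list medians of -0.12, 0.02 and 0.01. The granzyme genes Gzmc, Gzmf, Gzmg, Gzmk, Gzmm and Gzmn did not exceed the intron control limit on any array. Of the 4 genes of this list with the smallest F test p, Gzmm averaged 3.20 in intact mice and 3.25, 3.75 and 3.08 at days 1, 3 and 7. Serpinb6b averaged 4.50 in intact mice and 3.63, 3.80 and 3.63 at days 1, 3 and 7, and its product is a serpin, a class of protease inhibitors. Tnfsf10 averaged 6.21 in intact mice and 3.89, 5.19 and 4.87 at days 1, 3 and 7, and its difference at day 1 was -2.32 ± 0.66 (limma adjusted p = 0.333). Tnfsf10 encodes the death ligand TRAIL. Gzmg averaged 2.02 in intact mice and 2.20, 2.32 and 2.51 at days 1, 3 and 7.

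Of the T cell genes 5, 4 and 2 of 18 were lower at an unadjusted p under 0.05 at days 1, 3 and 7 (5.9, 2.5 and 3.74% of all probe sets). The count higher was 0 (3.04, 1.96 and 1.95% of all), and the list medians were -0.17, -0.07 and -0.21. The mean of this list over an array was 3.23 to 3.37 in intact mice. It was 3.07 to 3.16 at day 1, 3.09 to 3.19 at day 3 and 3.10 to 3.19 on the day 7 arrays. Cd2 encodes an adhesion receptor. Cd2 averaged 7.01 in intact mice and 5.72, 6.13 and 6.91 at days 1, 3 and 7, so that its day 7 difference was -0.10 ± 0.32 where that of Gzma was -2.60. Cd7 averaged 3.18 in intact mice and 2.51, 2.79 and 2.51 at days 1, 3 and 7, while Fyn averaged 5.52 in intact mice and 4.93, 4.86 and 4.71 at days 1, 3 and 7. Fyn, a kinase, acts downstream of the T cell receptor. Cd6 averaged 2.91 in intact mice and 2.49, 3.04 and 2.64 at days 1, 3 and 7. Cd3g, another CD3 chain, was picked out after its values were seen. Cd3g averaged 3.42 in intact mice and 2.92, 2.63 and 2.90 at days 1, 3 and 7.

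Of the NK cell genes 2, 0 and 1 of 17 were lower at an unadjusted p under 0.05 at the 3 days (5.9, 2.5 and 3.74% of all probe sets). The count higher was 0 (3.04, 1.96 and 1.95% of all), and the list medians were -0.11, -0.08 and -0.12. Txk averaged 3.79 in intact mice and 3.27, 3.55 and 4.03 at days 1, 3 and 7, and Itga2 averaged 4.51 in intact mice and 3.53, 4.48 and 4.20 at days 1, 3 and 7. Txk encodes a kinase and Itga2 an integrin chain. S1pr5 averaged 2.82 in intact mice and 2.71, 2.56 and 2.32 at days 1, 3 and 7, and Cd244a averaged 5.05 in intact mice and 4.79, 5.61 and 5.25 at days 1, 3 and 7. The transcription factor genes Tbx21 and Eomes never exceeded the limit.

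Costimulation genes around Icos were lower unadjusted in 3, 0 and 1 of 10 cases (5.9, 2.5 and 3.74% of all probe sets). They were higher in 0, 0 and 1 (3.04, 1.96 and 1.95% of all), with medians of -0.37, -0.10 and -0.04. Cd80 averaged 9.16 in intact mice and 8.48, 9.50 and 10.04 at days 1, 3 and 7, and Cd86 averaged 6.59 in intact mice and 5.30, 6.49 and 5.93 at days 1, 3 and 7. Both are ligands on macrophages and dendritic cells for CD28, a receptor of T cells. Cd28 averaged 3.25 in intact mice and 2.56, 2.75 and 2.59 at days 1, 3 and 7, and Tnfrsf9 averaged 3.80 in intact mice and 3.42, 3.65 and 3.83 at days 1, 3 and 7. Icosl, the ligand of Icos, was picked out after its values were seen and differed by 0.56 at day 1, -0.01 at day 3 and 0.18 at day 7.

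Cytokine and receptor genes around Il2rb were lower unadjusted in 2, 0 and 1 of 14 cases (5.9, 2.5 and 3.74% of all probe sets). They were higher in 0, 1 and 0 (3.04, 1.96 and 1.95% of all), with medians of -0.06, 0.11 and -0.00. Il7r averaged 5.49 in intact mice and 5.23, 6.67 and 5.58 at days 1, 3 and 7, and Il15 averaged 4.50 in intact mice and 3.78, 4.71 and 4.12 at days 1, 3 and 7. Il15 encodes a ligand that signals through Il2rb. Il21r averaged 2.92 in intact mice and 2.46, 2.79 and 2.42 at days 1, 3 and 7, and Il18r1 averaged 2.80 in intact mice and 2.20, 3.19 and 2.27 at days 1, 3 and 7.

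Chemotaxis genes around Ccl5 were lower unadjusted in 0, 4 and 2 of 14 cases (5.9, 2.5 and 3.74% of all probe sets). They were higher in 0, 1 and 1 (3.04, 1.96 and 1.95% of all), with medians of -0.34, -0.20 and -0.18. Ccr3 averaged 3.37 in intact mice and 3.07, 5.51 and 6.07 at days 1, 3 and 7, and its day 7 difference was 2.71 ± 0.48 (limma adjusted p = 0.14). Ccr3 is a receptor for Ccl5 that eosinophils carry. Cxcl10 averaged 8.60 in intact mice and 7.61, 7.16 and 7.58 at days 1, 3 and 7, and its product attracts activated T cells. Cx3cr1 averaged 2.94 in intact mice and 2.79, 2.48 and 2.37 at days 1, 3 and 7, and Cxcl16 averaged 7.66 in intact mice and 6.80, 8.05 and 7.14 at days 1, 3 and 7.

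Markers of other cells the sorted sample could hold were read in the same way. All 14 lung tissue markers were lower at each of the 3 days, with medians of -1.74, -1.19 and -1.40 (-0.011, 0.001 and -0.009 over all probe sets). Of them 14, 7 and 11 had an unadjusted p under 0.05, against 5.9, 2.5 and 3.74% of all probe sets lower. The mean of this list over an array was 6.49 to 7.30 in intact mice, 4.39 to 5.95 at day 1, 5.19 to 6.48 at day 3 and 5.22 to 6.01 on the day 7 arrays. Sftpc averaged 11.12 in intact mice and 8.71, 9.52 and 9.35 at days 1, 3 and 7, and it encodes a surfactant protein of type 2 cells. In limma 0, 1 and 2 of the 14 passed at days 1, 3 and 7, against 0, 0.0045 and 0.018% of all probe sets. Those past it were Col3a1, a collagen gene, at day 3 (-2.37 ± 0.25, limma adjusted p = 0.0135) and day 7 (-2.10 ± 0.25, adjusted p = 0.0249) and Sftpd, another surfactant gene, at day 7 (-1.98 ± 0.21, adjusted p = 0.00965). Both were picked out after their values were seen. Sftpd did not exceed the intron control limit on any array, and Col3a1 exceeded it on 1 intact array only. Day 1 replicate 2 was the lowest of all 12 arrays for this list at 4.39, and also for Gzma and Nkg7. Among the day 1 arrays it was also the lowest for Gzmb, Ccl5 and Ncr1, and the highest for Il2rb, Cd3e and Cd3d. Over all 12 arrays the lowest values of Gzmb, Ccl5 and Icos came from day 7 arrays. Day 3 replicate 1 had 6.48 for this list and 4.36 for Gzma, where the lowest intact array for this list had 6.49 and 5.04. Other arrays went differently. Day 7 replicate 2 had 6.01 for this list, with 3.01 for Gzma, 3.10 for Ccl5 and 2.99 for Icos. Day 3 replicate 3 had 5.58 for this list and 4.26 for Gzma. A relation between this list and the 10 genes was not tested.

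None of the other lists of cells had a gene past the threshold. Their counts below are by sign alone, and the median difference over all probe sets was -0.011, 0.001 and -0.009 at days 1, 3 and 7. Monocyte markers were lower in 10, 9 and 10 of 10 cases at days 1, 3 and 7, with medians of -0.78, -0.90 and -0.87 and array means of 6.20 to 6.77 in intact mice, 4.75 to 6.42 at day 1, 5.24 to 5.67 at day 3 and 5.13 to 5.86 on the day 7 arrays. Ly6c2 averaged 9.19 in intact mice and 7.27, 7.28 and 7.21 at days 1, 3 and 7. Markers of dendritic cells were lower in 9 of 10 cases at each day, with medians of -0.80, -0.25 and -0.16 and array means of 3.74 to 4.24 in intact mice, 2.98 to 3.53 at day 1, 3.45 to 3.62 at day 3 and 3.47 to 3.93 on the day 7 arrays. B cell markers were lower in 9, 7 and 7 of 9 cases, with medians of -0.31, -0.09 and -0.13 and array means of 3.4 to 3.65 in intact mice, 3.01 to 3.43 at day 1, 3.42 to 3.57 at day 3 and 3.35 to 3.57 on the day 7 arrays.

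Basophil, mast cell and type 2 lymphoid markers were lower in 7 of 8 cases at each day, with medians of -0.60, -0.67 and -0.85 and array means of 3.14 to 4.60 in intact mice, 2.71 to 3.21 at day 1, 2.79 to 3.05 at day 3 and 2.72 to 2.94 on the day 7 arrays. Mcpt8 averaged 4.92 ± 1.88 in intact mice and 2.64 ± 0.71, 2.28 ± 0.06 and 2.35 ± 0.24 at days 1, 3 and 7 (SD, n = 3), and it encodes a basophil protease. Eosinophil markers were lower in 4, 3 and 2 of 5 cases, with medians of -0.30, -0.38 and 0.77 and array means of 4.71 to 5.73 in intact mice, 4.45 to 5.23 at day 1, 4.59 to 5.84 at day 3 and 5.35 to 6.86 on the day 7 arrays.

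Neutrophil markers were lower in 1, 2 and 1 of 9 cases and higher in the rest, with medians of 1.02, 0.93 and 1.26 and array means of 7.40 to 7.93 in intact mice, 7.99 to 8.83 at day 1, 8.01 to 8.92 at day 3 and 8.39 to 9.02 on the day 7 arrays. Alveolar macrophage markers were lower in 6, 9 and 7 of 12 cases, with medians of -0.01, -0.26 and -0.03 and array means of 9.07 to 9.28 in intact mice, 8.58 to 9.25 at day 1, 8.77 to 9.16 at day 3 and 8.88 to 9.38 on the day 7 arrays. The part of any of these cells in the lower granzyme, Ccl5, Icos, Nkg7 and Il2rb values was not tested.

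**Figure D4:**
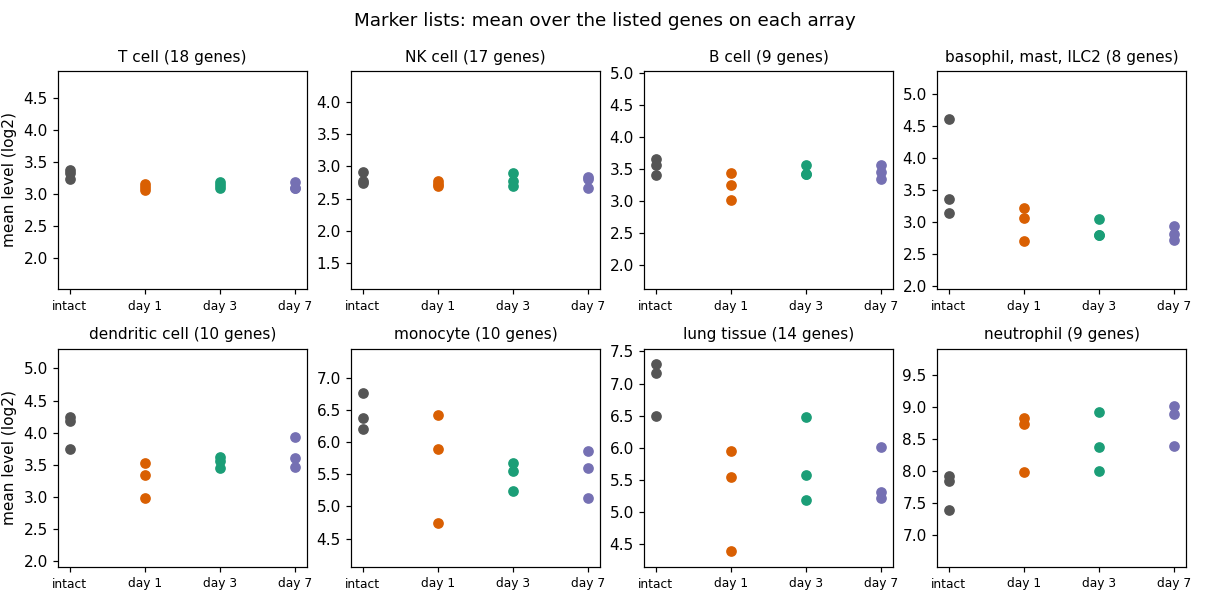
Mean level of 8 marker lists on each array (log2, vertical axis, 1 point per array, each panel spanning 3.4 units) by group. The lung tissue list lies at 4.39 to 6.48 after resection and at 6.49 to 7.30 in intact mice. The T cell list lies at 3.07 to 3.19 after resection and at 3.23 to 3.37 in intact mice. The NK cell list overlaps, at 2.66 to 2.90 after resection and 2.74 to 2.92 in intact mice. In these 2 lists 16 of 18 and 15 of 17 genes never exceeded the intron control limit. By sign 11 of 18 T cell genes were lower at each day, and 9, 11 and 10 of 17 NK cell genes at days 1, 3 and 7.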

How the data were processed

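Total RNA of Siglec-F sorted alveolar macrophages was labelled with biotin and hybridised to Clariom S mouse arrays. The deposited log2 values come from RMA run by the authors in Transcriptome Analysis Console, according to the submitters' processing notes, which give no version. The log2 scale was read from the values. Of 28846 probe sets, 6640 controls were left out of the tests. The annotation gave 19572 of the 22206 tested probe sets 1 symbol, 0 several and 2634 none. Values were fitted in limma 3.58.1 (R 4.3.3) with group as the only term over 12 arrays, empirical Bayes moderation and Benjamini-Hochberg adjustment over 22206 probe sets, two-sided. An exact permutation test of 3 against 3 arrays cannot go below 0.10. The precision is limited by the number of arrays. The 10 genes, the lists and the alternatives were chosen with earlier results of these data known. Named genes were the 10 genes, the 4 of each pathway list with the smallest F test p (a gene with several probe sets was read from its brightest), the first markers of the lists of other cells, and the 8 genes closest in pattern, and exceptions are marked. Alternatives covered moderation, a filter on dim probe sets, normalization, the arrays and groups in the fit, array weights and the replicate number as a block. Same-numbered arrays of different groups deviated from their group means with correlations of -0.24 to 0.26, so the numbers were not taken to pair the arrays.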

Additional observations from a re-analysis of the deposited data

How the results depend on the processing

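The 6 genes Gzma, Gzmb, Nkg7, Ccl5, Icos and Il2rb kept a negative difference from intact at each day under each of the 21 alternatives in which they were tested, with Gzma between -2.78 and -1.99 at day 1, -2.31 and -1.50 at day 3, and -2.98 and -2.24 at day 7. The count of the 10 genes past the threshold, 0 in the fit reported, changed with the arrays and their weights. Without the 3 arrays of weakest separation it was 2 at day 1, 5 at day 3, 4 at day 7 and 4 in the F test. With array weights it was 6 at day 3, 5 at day 7 and 6 in the F test. With only the groups compared it was 2 at day 7, and with the replicate block it was 3 at day 7, Gzma, Ccl5 and Icos. Leaving out single arrays gave 0 to 2 at day 7, the 2 with 0.0811% of all probe sets, and 0 in every other comparison. Without the 3 arrays of high dap day 7 kept 1 array, which was taken to vary like the others, and the count was 0. The count of genes with every array after resection below the intact arrays was 6, and 7 without the 3 arrays of weakest separation, an alternative chosen after seeing the data. Over all probe sets the counts were 0, 1 and 4 at days 1, 3 and 7 and 2 in the F test, against 71, 252, 280 and 281 without the 3 arrays of weakest separation, 43, 298, 402 and 360 with array weights, and at day 7 48 with only the groups compared and 8 with the replicate block (0.036%). The replicate numbers were not found to pair the arrays. The cause of these changes was not tested.

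Other values turned sign, none of them past the threshold. Cd3d at day 1 was -0.16 with array weights and -0.28 without the arrays of weakest separation, and Ncr1 at day 7 was -0.02 after quantile normalization. For day 3 against day 1, Gzmb was 0.04 after quantile normalization, Nkg7 -0.00 after median centring and -0.21 with array weights, and without the arrays of weakest separation Gzma was -0.17, Nkg7 -0.24, Icos -0.10 and Cd3d 0.01. Without the arrays of high dap Icos was -0.11 in that pair. For day 7 against day 3, Il2rb was -0.07 with array weights, Prf1 0.24 and Ccl5 0.13 without the arrays of weakest separation, and Prf1 0.52, Ccl5 0.26 and Cd3e 0.15 without those of high dap. For day 7 against day 1, Ccl5 was 0.03 and Il2rb 0.11 without those of high dap. Leaving out single arrays gave ranges across 0 against intact of -0.28 to 0.27 for Cd3d at day 1, and at day 7 of -0.08 to 0.09 for Ncr1 and -0.09 to 0.29 for Prf1. For day 3 against day 1 they were -0.27 to 0.28 for Gzmb, -0.30 to 0.18 for Nkg7, -0.33 to 0.23 for Cd3e, -0.53 to 0.03 for Cd3d and -0.11 to 0.30 for Icos. For day 7 against day 3 they were -0.42 to 0.08 for Prf1, -0.49 to 0.07 for Cd3e and -0.51 to 0.13 for Ccl5. For day 7 against day 1 they were -0.53 to 0.02 for Gzmb, -0.01 to 0.47 for Nkg7, -0.61 to 0.08 for Gzma, -0.01 to 0.37 for Prf1 and -0.34 to 0.11 for Il2rb.

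The filter on dim probe sets left 5762 probe sets and 2 of the 10 genes, Gzma and Ccl5, of which 0 passed in limma. Both were kept through their level in intact mice, so their values after this filter support nothing. The mean over probe sets of a gene could not differ, since each gene had 1. Signal over background limits these results: after resection all 10 genes lay under the intron control limit on all 9 arrays, so the size of a difference there is uncertain.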
